A study of Homo sapiens with 12 samples.

Results

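The proteasome genes were taken from the deposited table as every human gene whose symbol starts with PSM, a letter from A to G and a digit, without PSMB8 and PSMB9. The pattern matched 47 symbols, and 45 reached 1 FPKM, the fragments per kilobase of transcript scaled to library size, in no fewer than 3 of the 12. The whole table gave 19647 genes, of which 11908 passed that filter and were tested. The 45 genes hold 15 subunits of the 20S core (7 of the alpha ring and 8 of the beta ring) and 17 of the 19S particle (6 ATPases and 11 non-ATPase subunits). The others are 3 assembly chaperones of the 19S particle, 4 of the 20S core, and 5 genes of other caps and of an inhibitor. PSMC3IP, a meiotic recombination partner of PSMC3 that is no proteasome subunit, also fits the symbol pattern and was kept, so counts over the 45 genes include it. All 45 stood at 1 FPKM or more in each of the 12 libraries, so the filter selected none of them by group. The lowest was PSMC3IP, with 1.05 to 5.52 FPKM. Left out were PSMA8, a testis alpha subunit at 0 FPKM in all 12 libraries, and PSMB11, a thymus beta subunit at no more than 0.03 FPKM.

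The libraries are RNA sequencing of A549, a human non-small cell lung cancer line, in 4 groups of 3. In the first arm cells overexpressing NR0B1, an orphan nuclear receptor also called DAX1, were set against a wild-type overexpression control. In the second, cells carrying a hairpin that targets NR0B1 (the knockdown) were set against a control that is labelled wild type in its genotype and shNC in its title, and no group had a drug treatment. The sources used here give neither the vectors and clones nor whether replicates were separate cultures, so p-values measure the spread between these libraries, which may be technical. The series' title concerns NR0B1, glutathione metabolism and ferroptosis in lung cancer cells, and both arms ask what moves with the NR0B1 level.

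The proteasome degrades proteins that carry ubiquitin chains. Its 20S core is a barrel of alpha and beta rings, and the beta subunits PSMB5, PSMB6 and PSMB7 carry the proteolytic sites. The 19S particle caps the core, binds ubiquitin chains, removes them and unfolds the substrate with its ring of ATPases. Subunits are made in balanced amounts, and the factors NFE2L1 and NFE2L2 raise their transcription through antioxidant response elements, while interferon replaces the catalytic subunits by PSMB8, PSMB9 and PSMB10 and raises the PSME1 and PSME2 cap.

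Promoters of 39 of the 45 genes were found in RefSeq (GRCh38.p14), as windows of 300 bases with 250 before the start site. The pattern TGACNNNGC, the core of the antioxidant response element, was searched on both strands. It stood in 12 of the 39 (30.8%), in 1 of 11 20S promoters (9.09%) and in 4 of 16 19S promoters (25.0%), beside 13.6% of 27305 promoters. CCAAT, the box that the factor NF-Y binds, stood in 18 of 39 (46.2%), in 6 of 11 20S promoters and in 8 of 16 19S promoters, beside 35.7% of all. The repeat of interferon-stimulated elements (GAAA, any pair of bases, GAAA) was added after values were seen and stood in 6 of 39 (15.4%), those of PSMA4, PSMB4, PSMB10, PSME1, PSME2 and PSMG4, beside 3.65% of all. The windows shown, of 150 bases each, belong to a 20S gene and a 19S gene whose responses differed between the arms (PSMB3 and PSMD12) and to the genes that moved with interferon-linked genes in single libraries (PSMB10, PSME1 and PSME2). They are written in the sense of the gene, with matches on either strand in capitals. They lie at chr17:38752606-38752755 on the plus strand (PSMB3), chr17:67366608-67366757 on the minus strand (PSMD12), chr16:67936836-67936985 on the minus strand (PSMB10), chr14:24136059-24136208 on the plus strand (PSME1) and chr14:24146596-24146745 on the minus strand (PSME2).
PSMB3: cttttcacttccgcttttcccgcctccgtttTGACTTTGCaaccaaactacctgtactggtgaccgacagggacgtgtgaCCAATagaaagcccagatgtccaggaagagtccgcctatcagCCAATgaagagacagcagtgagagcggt
PSMD12: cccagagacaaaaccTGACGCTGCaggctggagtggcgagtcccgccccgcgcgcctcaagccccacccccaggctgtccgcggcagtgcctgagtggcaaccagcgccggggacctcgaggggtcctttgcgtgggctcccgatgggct
PSMB10: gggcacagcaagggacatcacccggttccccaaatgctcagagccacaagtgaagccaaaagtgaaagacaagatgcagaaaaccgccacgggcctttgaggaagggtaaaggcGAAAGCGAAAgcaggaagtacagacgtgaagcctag
PSME1: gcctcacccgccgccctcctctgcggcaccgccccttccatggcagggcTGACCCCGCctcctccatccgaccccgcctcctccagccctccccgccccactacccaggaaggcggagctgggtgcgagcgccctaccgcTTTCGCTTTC
PSME2: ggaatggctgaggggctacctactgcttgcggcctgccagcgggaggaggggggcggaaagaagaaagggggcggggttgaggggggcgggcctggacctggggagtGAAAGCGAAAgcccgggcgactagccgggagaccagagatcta
PSMB3 has a TGACNNNGC match starting 104 bases before the start site and CCAAT starting 55 and 13 bases before it. PSMD12 has 1 TGACNNNGC match, 165 bases before, and its window ends ahead of the start site. PSMB10 and PSME2 have the GAAA repeat 21 and 28 bases before the start, and PSME1 has it on the other strand just past the start. A match describes the letters and is no measured site.

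Libraries held between 15049011 and 22797076 expected counts, and the proteasome genes other than PSMC3IP took 0.463% to 0.571% of the counts of genes. CPM values are counts scaled to library size with TMM factors, which remove differences in depth and composition. NR0B1 stood at 98.9, 81.8 and 84.1 CPM with overexpression and at 17.9, 60.1 and 55.2 in its control, where replicate 1 lies near the knockdown controls (16.3, 21.1 and 13.3). The knockdown held 2.99, 3.31 and 5.84 CPM. NR0B1 fell in the knockdown (log2 fold change -2.06, SE 0.42, edgeR quasi-likelihood test, Benjamini-Hochberg adjusted p = 0.00593) and did not pass with overexpression (0.99, SE 0.38, adjusted p = 0.0912, and 0.62 without control replicate 1, adjusted p = 0.106). Knockdown replicate 2 stood apart from replicates 1 and 3: 6 interferon-linked genes (PSMB8, PSMB9, TAP1, TAP2, IRF1 and NLRC5) summed to 754 CPM there, to 152 and 148 in the other two, to 209 to 236 in the knockdown controls and to 414 to 658 in the 6 libraries of the overexpression arm. The keratins KRT7, KRT8 and KRT18 of epithelial cells stood at 547 to 1675 FPKM, EPCAM only at 0.23 to 2.6. CDKN2A, deleted in A549, reached at most 0.08 FPKM, and markers of leukocytes, endothelium, fibroblasts and differentiated alveolar cells at most 0.66. In bulk RNA a change in a share of the cells and a change in each cell cannot be told apart.

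With overexpression 4 of 45 were called at an adjusted p below 0.05, PSMD12, PSMD11 and PSMD5 higher and PSMA2 lower, beside 18.1% of all genes tested (9.87% higher and 8.2% lower). In the knockdown 6 of 45 were called, PSMB6, PSMB5, PSMB3 and PSMD5 higher and PSMD10 and PSMG2 lower, beside 23.9% of all genes (12.4% higher and 11.5% lower). PSMD5 was the gene called in both arms, in the same direction. The share of proteasome genes called, 8.89% and 13.3%, was below that of all genes in both arms. The 3 treated and 3 control libraries did not overlap for 8 higher and 6 lower proteasome genes with overexpression (7 and 6 without PSMC3IP), where 21.6% and 21.9% of all genes did so, and for 7 and 5 in the knockdown, where 20.2% and 20.6% did. Leaving out single libraries moved the overexpression count between 0 and 9, with 0 without any 1 of the overexpression replicates or without control replicate 2 or 3, 2 without knockdown control replicate 1 or 2, 8 without knockdown replicate 2 (27.7% of all genes) and 9 without overexpression control replicate 1 (25.3% of all genes). The knockdown count moved between 2 and 10, with 2 without knockdown control replicate 2 or 3, 3 without knockdown control replicate 1 and 10 without overexpression control replicate 1 (28.6% of all genes). For the other libraries left out the share of all genes is not reported here, so those counts cannot be read as a trait of the proteasome genes.

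**Figure D1:**
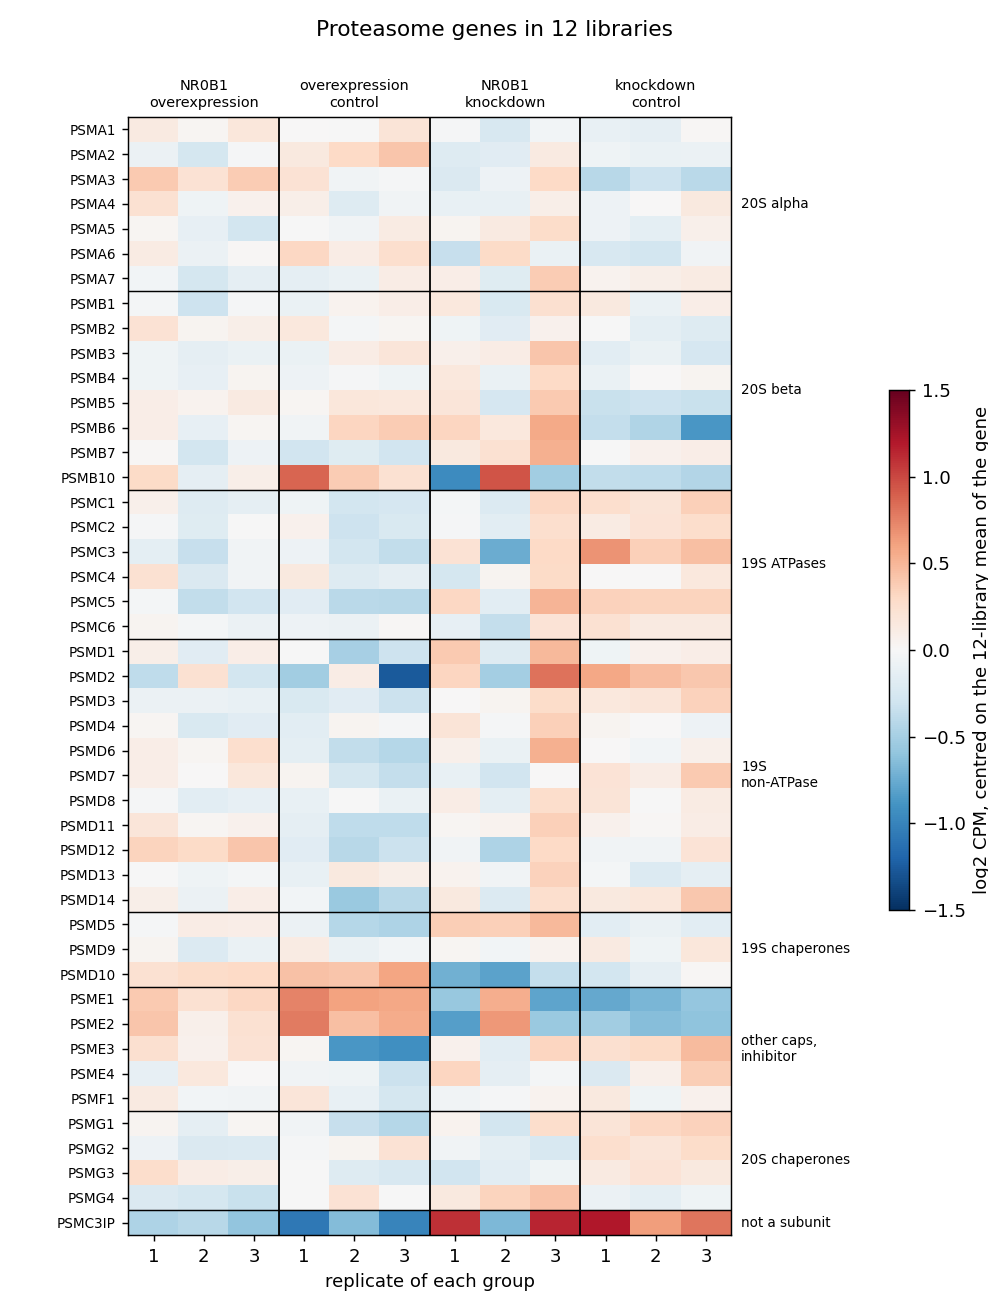
Colour shows log2 CPM of each of the 45 proteasome genes (rows, grouped by role) in each of the 12 libraries (columns, 3 replicates a group), centred on the gene's mean over the libraries. PSME1 and PSME2 are high in the overexpression arm and in knockdown replicate 2, PSMC3IP is low in the same libraries, and PSMB6 is lowest in the knockdown controls.

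The beta ring of the 20S core, which holds the proteolytic sites, held 3 of 8 genes called higher in the knockdown by edgeR and 0 lower, beside 12.4% and 11.5% of all genes. DESeq2 also called 3 and limma 1. All 8 fitted values lay above 0 (median 0.32, range 0.02 to 0.91), beside a median of 0.03 over all genes tested. With library size alone, limma, no FPKM filter or without knockdown replicate 2, where PSMB10 was at -0.32, 7 of the 8 lay above 0. PSMB6, the caspase-like catalytic subunit, stood at 80.9, 72.5 and 96.3 CPM in the knockdown (83.2 ± 12.1, SD, n = 3) and at 50.7, 47.3 and 35.3 CPM in its controls (44.4 ± 8.10, SD, n = 3). The groups did not overlap, and PSMB6 rose 1.87-fold (log2 0.91, SE 0.17, edgeR adjusted p = 0.00377). That call held in each of the 22 alternatives, with adjusted p from 1e-05 to 0.0211. In the overexpression arm PSMB6 stood at 69.3, 59.4 and 66.1 CPM beside 62.3, 81.1 and 84.5 in the controls, which overlap (log2 -0.23, SE 0.17, edgeR adjusted p = 0.364). All 6 libraries of the overexpression arm lay above the 3 knockdown controls.

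PSMB5, the chymotrypsin-like catalytic subunit, stood at 112, 83.5 and 131 CPM in the knockdown and at 79.0, 80.3 and 79.2 in its controls. The groups did not overlap, although replicate 2 lay just above the controls, and the rise was 1.37-fold (log2 0.45, SE 0.14, edgeR adjusted p = 0.0340). The call was lost without overexpression replicate 2 or 3, knockdown replicate 1 or 3, or any 1 of the 3 knockdown controls (adjusted p 0.0574 to 0.108). Over all 22 alternatives it was lost in 11, 7 of them these left-out libraries. Its range was 0.000465 to 0.118, the highest with the libraries of the arm alone. With overexpression PSMB5 stood at 107, 103 and 109 CPM beside 102, 111 and 111, with overlap (log2 -0.02, SE 0.14, edgeR adjusted p = 0.922). PSMB7, the trypsin-like catalytic subunit, stood at 95.2, 100.1 and 124 CPM in the knockdown beside 85.1, 89.4 and 92.1, without overlap, but did not pass (log2 0.26, SE 0.12, edgeR adjusted p = 0.128). In the overexpression arm it stood at 86.8, 70.9 and 81.2 CPM beside 70.4, 75.8 and 70.4, which overlap (log2 0.14, edgeR adjusted p = 0.424).

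PSMB3, a beta subunit without a proteolytic site, stood at 125, 127 and 158 CPM in the knockdown and at 106, 111 and 99.6 in its controls. It rose 1.3-fold (log2 0.38, SE 0.11, edgeR adjusted p = 0.0340), and the call was lost without overexpression replicate 2 or 3, knockdown replicate 3 or any 1 knockdown control (adjusted p 0.0594 to 0.134, over all alternatives 0.00911 to 0.134). In all, 10 of the 22 alternatives lost the call, 6 of them these left-out libraries. With overexpression PSMB3 stood at 114, 108 and 111 CPM beside 110, 127 and 135 (log2 -0.16, edgeR adjusted p = 0.334). PSMB1, PSMB2 and PSMB4, the other constitutive beta subunits, had knockdown values of 0.02, 0.06 and 0.15 on the log2 scale and were not called in either arm.

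PSMB10, the interferon-inducible counterpart of PSMB7, was the lowest core subunit, at 8.41 FPKM over the 12 libraries. It stood at 6.08, 22.5 and 8.12 CPM in the knockdown and at 9.04, 8.96 and 8.61 in its controls, so that only replicate 2 lay above them (log2 0.46, SE 0.40, edgeR adjusted p = 0.425). Without that library the value was -0.32 (adjusted p = 0.320). In the overexpression arm it stood at 14.2, 10.7 and 12.4 CPM beside 21.3, 15.2 and 13.7, which overlap (log2 -0.43, SE 0.40, edgeR adjusted p = 0.470). The interferon-linked genes were high in the same libraries as PSMB10, and their part in these values was not tested.

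In the alpha ring, which gates the core, edgeR called 1 of 7 genes with overexpression, lower (14.3%), beside 18.1% of all genes (8.2% lower). In the knockdown it called 0, beside 23.9% of all genes, while 1 had an unadjusted p below 0.05 and DESeq2 called 1 and limma 0. PSMA2 stood at 52.8, 47.0 and 55.5 CPM with overexpression and at 62.1, 69.0 and 75.3 in its controls, without overlap. It fell 1.33-fold (log2 -0.41, SE 0.12, edgeR adjusted p = 0.0377). The call was lost without any 1 overexpression replicate, overexpression control replicate 2 or 3, or any 1 knockdown control (adjusted p 0.0658 to 0.149, over all alternatives 0.0104 to 0.149). In all, 10 of the 22 alternatives lost the call, 8 of them these left-out libraries. In the knockdown PSMA2 stood at 49.1, 49.8 and 61.8 CPM beside 53.9, 52.6 and 53.0 (log2 0.01, edgeR adjusted p = 0.956). Reads of PSMA2 may be shared with 3 named pseudogenes and with MRPL32 on the opposite strand, and use of strand in counting is not stated. The same limit holds for many members: 23 of the 45 genes overlap a gene on the opposite strand and 12 have a pseudogene named after them. The latter include PSMB3, PSMD7, PSMD10 and PSMD12. Of the other alpha genes, PSMA3 had the largest values, 0.27 with overexpression and 0.40 in the knockdown (edgeR adjusted p = 0.178 and 0.0526). Its knockdown value was called without overexpression control replicate 1 (adjusted p = 0.0400), knockdown replicate 1 (0.0310) or knockdown replicate 2 (0.0438). PSMA1, PSMA4, PSMA5, PSMA6 and PSMA7 lay between -0.21 and 0.13 with overexpression and between -0.07 and 0.20 in the knockdown, and none was called.

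The 19S ATPases, PSMC1 to PSMC6, which unfold the substrate, had 0 calls in either arm by edgeR, DESeq2 or limma, with 0 of 6 genes at an unadjusted p below 0.05 with overexpression and 1 of 6 in the knockdown. Of all genes edgeR called 18.1% with overexpression and 23.9% in the knockdown. Each fitted value of the 6 ATPases lay above 0 with overexpression (0.02 to 0.11) and below 0 in the knockdown (-0.51 to -0.02). The largest, PSMC3, stood at 78.2, 40.1 and 82.7 CPM in the knockdown and at 107, 86.5 and 92.2 in its controls, without overlap (log2 -0.51, SE 0.23, edgeR adjusted p = 0.124). Replicate 2 was the lowest, and without it the value was -0.25 (adjusted p = 0.182). With that library left out PSMC5 turned, to 0.08 (edgeR adjusted p = 0.667), and PSMC1, PSMC2, PSMC4 and PSMC6 lay between -0.12 and -0.02. The position of all 6 below 0 thus rested on knockdown replicate 2. Without knockdown replicate 3, PSMC1 and PSMC6 were called lower (log2 -0.38 and -0.40, adjusted p = 0.0394 and 0.0190).

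Of the 11 non-ATPase subunits 2 rose with overexpression, 18.2% beside 9.87% of all genes called higher and 18.1% called in either direction. In the knockdown edgeR called 0, beside 23.9% of all genes. There 1 had an unadjusted p below 0.05, and DESeq2 and limma called 1 each. PSMD7 had the smallest adjusted p there, lower without overlap (log2 -0.37, SE 0.13, edgeR adjusted p = 0.0576). With overexpression it had 0.28 (edgeR adjusted p = 0.146). Without overexpression control replicate 1 both were called (0.0279 and 0.0346). PSMD1 was called higher in the knockdown without knockdown replicate 2 (log2 0.40, edgeR adjusted p = 0.0476). PSMD12, a scaffold subunit of the lid, stood at 153, 148 and 161 CPM with overexpression and at 107, 90.5 and 96.6 in its controls (154 ± 6.65 and 98.1 ± 8.5, SD, n = 3 each). The groups lay far apart, and the rise was 1.57-fold (log2 0.65, SE 0.17, edgeR adjusted p = 0.0230). The call was lost without any 1 overexpression replicate or without control replicate 2 or 3 (adjusted p 0.0572 to 0.0855, over all alternatives 0.00189 to 0.0855), although the value stayed between 0.59 and 0.72. In the knockdown PSMD12 stood at 117, 87.4 and 148 CPM beside 117, 116 and 140, which overlap (log2 -0.08, SE 0.17, edgeR adjusted p = 0.757).

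PSMD11, which stabilises the 26S particle and is known from its role in pluripotent stem cells, stood at 215, 195 and 199 CPM with overexpression and at 173, 146 and 146 in its controls. It rose 1.31-fold (log2 0.39, SE 0.11, edgeR adjusted p = 0.0354), without overlap. The call was lost without any 1 overexpression replicate, overexpression control replicate 2 or 3, or knockdown control replicate 1 or 2 (adjusted p 0.0507 to 0.119, over all alternatives 0.00537 to 0.119). In all, 8 of the 22 alternatives lost the call, 7 of them these left-out libraries. In the knockdown PSMD11 had a value of 0.09 (edgeR adjusted p = 0.615). PSMD6, another lid subunit, lay without overlap at 80.9, 77.2 and 89.6 CPM beside 68.4, 58.4 and 56.2 and did not pass (log2 0.44, SE 0.15, edgeR adjusted p = 0.0686). It was called without overexpression control replicate 1 (adjusted p = 0.0434), knockdown replicate 2 (0.0273) or knockdown replicate 3 (0.0165).

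PSMD14, the deubiquitinase of the lid, stood at 106, 93.5 and 106 CPM with overexpression and at 97.2, 68.0 and 75.0 in its controls, which overlap through control replicate 1 (log2 0.35, SE 0.16, edgeR adjusted p = 0.137). Without that library it was called, at 0.51 (adjusted p = 0.0297, over all alternatives 0.00535 to 0.371). Its knockdown libraries stood at 110, 86.4 and 119 CPM beside 111, 112 and 132 (log2 -0.17, edgeR adjusted p = 0.459). PSMD4, a ubiquitin receptor, stood with overlap in the overexpression arm, at 112, 93.1 and 97.5 CPM beside 98.2, 113 and 108 (log2 -0.08, edgeR adjusted p = 0.679). Its knockdown libraries stood at 125, 108 and 140 CPM beside 112, 109 and 104, with overlap (log2 0.19, edgeR adjusted p = 0.238), and was called, higher, only where overexpression control replicate 1 and knockdown replicate 2 were both left out (adjusted p = 0.0406).

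PSMD2, a large base subunit, has an assembled row of its own that holds 75.2% of the counts under its symbol. Its annotated rows spread widely within groups, at 48.8, 74.6 and 52.7 CPM with overexpression, 44.4, 68.9 and 26.5 in its controls, and 79.2, 44.5 and 112 in the knockdown. With the assembled row added, its knockdown libraries stood at 378, 245 and 376 CPM and the controls at 296, 285 and 301 (log2 0.18, edgeR adjusted p = 0.380), in place of a value of -0.18 from the annotated rows alone. The overexpression value changed from 0.33 to -0.07 (adjusted p = 0.760). The direction for PSMD2 therefore turned with the rows counted in both arms.

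**Figure D2:**
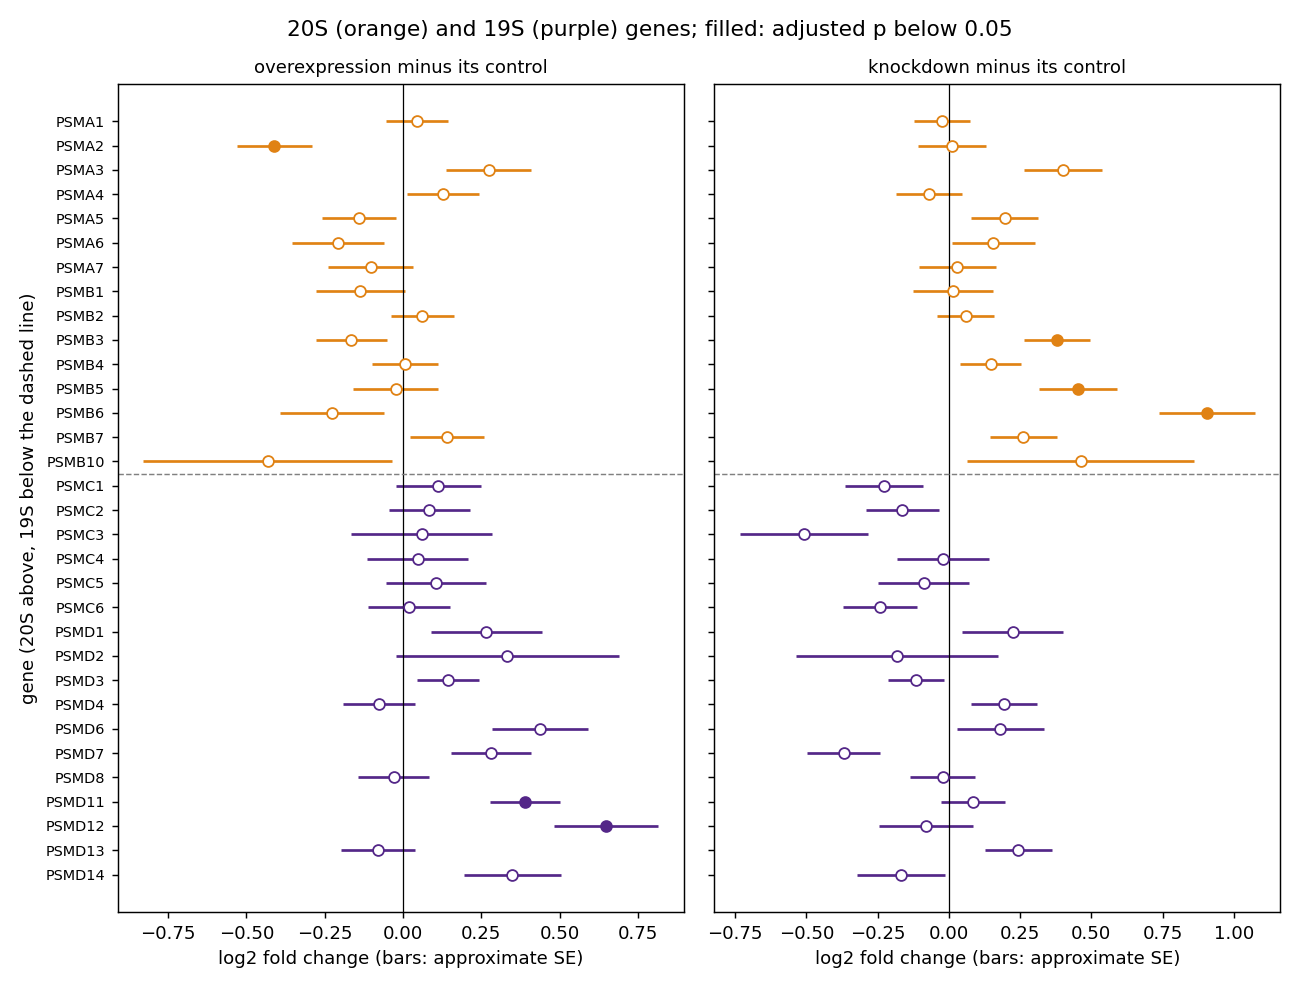
Points give the log2 fold change of each 20S gene (orange) and 19S gene (purple) with overexpression (left) and in the knockdown (right), bars are approximate SE from the edgeR fit, and filled points have an adjusted p below 0.05. In the right panel the beta ring lies right of 0 and the ATPases PSMC1 to PSMC6 left of it.

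Compared as classes, the 20S core and the 19S particle lay on opposite sides of 0 in each arm. With overexpression the median log2 fold change was -0.10 over the 15 core genes and 0.11 over the 17 particle genes, beside -0.03 over all genes tested. Of the core genes 9 lay below 0 and 1 was called, lower (6.67%). Of the particle genes 14 lay above 0 and 2 were called, higher (11.8%). Of all 11908 genes 6263 lay below 0 and 5645 above it, and 8.2% were called lower and 9.87% higher. In the knockdown the medians were 0.16 for the core and -0.09 for the particle, beside 0.03 over all genes. There 13 of 15 core genes lay above 0 and 3 were called, higher (20%), while 12 of 17 particle genes lay below 0 and 0 were called by edgeR. Of all 11908 genes 6227 lay above 0 and 5681 below it, and 12.4% were called higher and 11.5% lower. At an unadjusted p below 0.05 there were 2 particle genes in the knockdown, and DESeq2 and limma each called 1, lower. No test was made of the medians, which describe these genes only.

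Per library, each gene's log2 CPM was centred on its mean over the 12 libraries and averaged over a class. The core minus the particle came to 0.06, -0.01 and 0.04 with overexpression and to 0.17, 0.28 and 0.42 in its controls. It came to -0.12, 0.23 and -0.14 in the knockdown and to -0.31, -0.27 and -0.35 in its controls. The groups did not overlap within either arm. The means of the treated groups, 0.03 with overexpression and -0.01 in the knockdown, lay between those of their controls, 0.29 and -0.31. Knockdown replicate 2 lay among the overexpression controls, with the lowest particle mean of its group (-0.20 beside 0.07 and 0.34) and not the highest core mean (0.02 beside -0.05 and 0.20). Without PSMB10 and PSMD2, the core minus the particle was 0.02, 0.01 and 0.02 with overexpression, 0.09, 0.28 and 0.36 in its controls, -0.04, 0.14 and -0.06 in the knockdown, and -0.27, -0.23 and -0.32 in its controls. Leaving knockdown replicate 2 out turned the particle median in the knockdown from -0.09 to 0.08 and left that of the core at 0.16. Over the single libraries left out, the core median ranged from -0.16 to -0.02 with overexpression and from 0.12 to 0.25 in the knockdown.

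**Figure D3:**
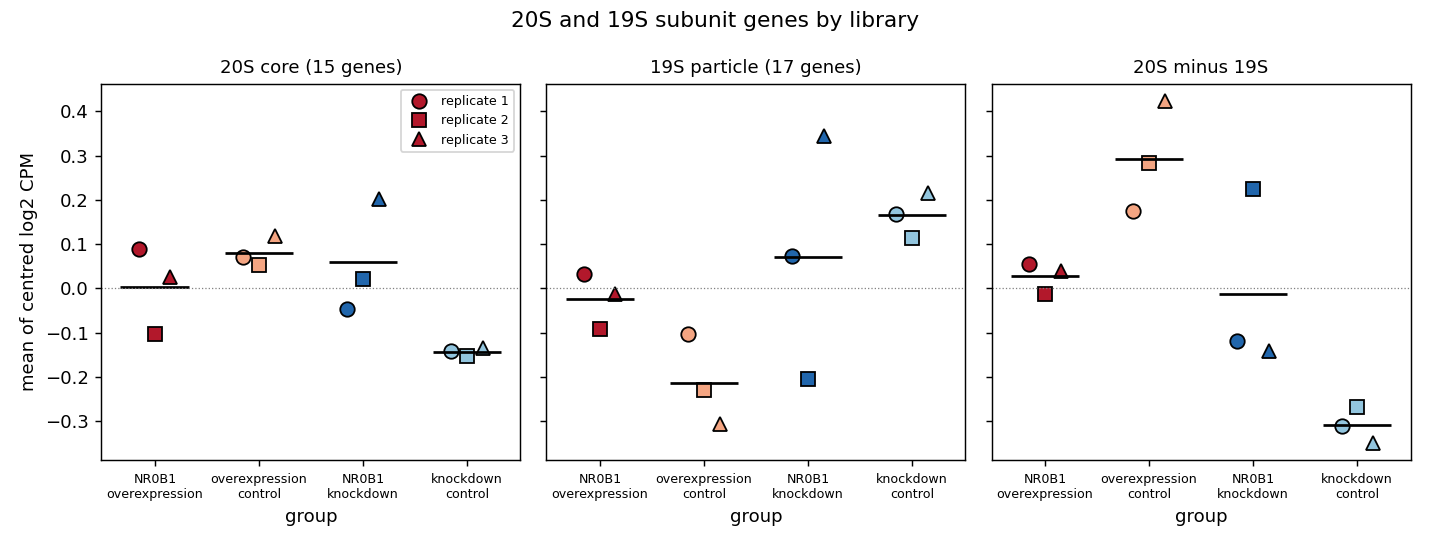
Each point is a library, with the mean of centred log2 CPM over the 15 core genes (left), the 17 particle genes (middle) and their difference (right), by group, and bars are group means. In the right panel the overexpression controls lie highest, the knockdown controls lowest, and knockdown replicate 2 lies at 0.23 among the former.

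On the authors' FPKM scale, which allows for transcript length, the median was 66.4 over the core genes and 51.5 over the particle genes. Among core genes PSMA4 was highest (210 FPKM) and PSMB10 lowest (8.41). Among particle genes PSMD8 was highest (199 FPKM) and PSMD2 lowest (17.9 FPKM), the latter without its assembled row. The 20S chaperones PSMG1 to PSMG4, which act only during assembly, were lower, with a median of 15.9 FPKM. The median over the PSME genes and PSMF1 was higher, at 97.1, although PSME4 stood at 26.2 FPKM.

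PSMD5, a chaperone that builds the 19S base, rose in both arms. It stood at 109, 108 and 119 CPM in the knockdown (112 ± 5.80, SD, n = 3) and at 76.2, 78.9 and 76.0 in its controls (77.0 ± 1.65). The groups lay far apart, and the rise was 1.45-fold (log2 0.54, SE 0.11, edgeR adjusted p = 0.00573). It held in each of the 22 alternatives (adjusted p 5.5e-05 to 0.0281). With overexpression PSMD5 stood at 84.0, 91.4 and 90.7 CPM and at 79.8, 62.8 and 61.5 in its controls and also rose, 1.3-fold (log2 0.38, SE 0.11, edgeR adjusted p = 0.0346). That second call was lost without any 1 overexpression replicate or control replicate 2 or 3 (adjusted p 0.0603 to 0.123, over all alternatives 0.00143 to 0.123). In all, 8 of the 22 alternatives lost the call, 5 of them these left-out libraries. The pseudogene CUTALP lies on the strand opposite to PSMD5.

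PSMD10, the chaperone also called gankyrin and known as an oncoprotein, fell in the knockdown. It stood at 36.0, 34.1 and 46.4 CPM there and at 48.9, 54.0 and 59.7 in its controls, without overlap (1.40-fold lower, log2 -0.48, SE 0.13, edgeR adjusted p = 0.0208). The call was lost without knockdown replicate 1 or knockdown control replicate 2 or 3 (adjusted p 0.0593 to 0.0945, over all alternatives 0.00352 to 0.0945). In all, 4 of the 22 alternatives lost the call, 3 of them these left-out libraries. With overexpression PSMD10 stood at 69.6, 71.9 and 73.0 CPM beside 80.1, 79.1 and 89.3, lower without overlap but not called (log2 -0.21, SE 0.13, edgeR adjusted p = 0.266). PSMD9, the third base chaperone, was not called in either arm (log2 -0.08 and -0.07, edgeR adjusted p = 0.646 and 0.699).

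Among the chaperones of the 20S core, PSMG2, which pairs with PSMG1 to order the alpha ring, fell in the knockdown. It stood at 24.1, 22.6 and 21.2 CPM beside 29.9, 28.3 and 30.2, without overlap (1.3-fold lower, log2 -0.38, SE 0.11, edgeR adjusted p = 0.0310). The call was lost without knockdown replicate 3 or any 1 knockdown control (adjusted p 0.0586 to 0.0926, over all alternatives 0.00650 to 0.0926). In all, 6 of the 22 alternatives lost the call, 4 of them these left-out libraries. With overexpression PSMG2 stood at 23.8, 21.6 and 21.7 CPM beside 24.8, 25.7 and 29.1 (log2 -0.25, edgeR adjusted p = 0.146). PSMG2 overlaps CEP76 and SPIRE1 on the opposite strand. PSMG1 had values of 0.24 and -0.25 in the overexpression and knockdown arms (edgeR adjusted p = 0.290 and 0.248). With overexpression edgeR called 0 of the 4 core chaperones and limma 0, while DESeq2 called 1 and 2 had an unadjusted p below 0.05. In the knockdown edgeR called 1 of the 4, limma 2 and DESeq2 3. The edgeR share in the knockdown, 25%, lay near the 23.9% of all genes, and the 0 with overexpression stood beside 18.1%. Shares of all genes called by limma and DESeq2 are not reported here.

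PSMG3 and PSMG4, which form the other pair of 20S chaperones, lay on opposite sides. PSMG3 stood at 39.6, 35.6 and 35.0 CPM with overexpression beside 32.9, 28.8 and 28.0, and at 27.0, 29.7 and 31.7 CPM in the knockdown beside 36.2, 38.2 and 36.6. It was higher without overlap in the first arm and lower without overlap in the second, with adjusted p = 0.0847 and 0.0525 by edgeR. Without overexpression control replicate 1 both were called (0.0380 and 0.0338), and without knockdown replicate 3 the second was (0.0392). PSMG4 stood at 10.22, 9.89 and 9.39 CPM with overexpression beside 11.8, 13.8 and 11.8, and at 13.1, 14.9 and 15.9 CPM in the knockdown beside 11.2, 10.7 and 11.3. It was lower, then higher, each without overlap, with adjusted p = 0.120 and 0.0599 by edgeR, and the second was called without overexpression control replicate 1 (0.0481).

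The PSME1 and PSME2 subunits of the interferon-inducible 11S cap were not called in either arm by edgeR. PSME1 stood at 184, 163 and 174 CPM with overexpression and 234, 213 and 210 in its controls, lower without overlap (log2 -0.33, SE 0.27, edgeR adjusted p = 0.405). In the knockdown it stood at 94.1, 204 and 81.1 CPM beside 82.4, 87.0 and 93.4 (log2 0.53, SE 0.27, edgeR adjusted p = 0.174). PSME2 stood at 176, 140 and 155 CPM with overexpression and 228, 182 and 195 in its controls (log2 -0.36, SE 0.30, edgeR adjusted p = 0.424). In the knockdown it stood at 74.7, 207 and 89.7 CPM beside 91.96, 84.8 and 87.0 (log2 0.50, SE 0.30, edgeR adjusted p = 0.252). Knockdown replicate 2 alone held levels like those of the overexpression arm. Without it the knockdown values were 0.00 for PSME1 and -0.10 for PSME2 (adjusted p = 0.985 and 0.603), and both genes were called lower with overexpression (log2 -0.32 and -0.35, adjusted p = 0.0245 and 0.0460, over all alternatives 0.0245 to 0.586 and 0.0460 to 0.642). Without knockdown replicate 3, PSME1 was called higher in the knockdown (adjusted p = 0.0420).

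PSME3, the nuclear 11S cap, stood at 337, 298 and 331 CPM with overexpression and at 290, 156 and 151 in its controls. Control replicate 1 lay close to the overexpression libraries, and the difference did not pass (log2 0.69, SE 0.23, edgeR adjusted p = 0.0547). Without that library PSME3 rose, with a log2 fold change of 1.07 (adjusted p = 0.00144). It was also called without knockdown replicate 2 or 3, over all alternatives from 0.000186 to 0.179. Its knockdown libraries stood at 297, 256 and 357 CPM beside 337, 349 and 396 (log2 -0.25, edgeR adjusted p = 0.446). PSME3 overlaps BECN1 on the opposite strand. PSME4, the PA200 cap, stood at 207, 251 and 226 CPM with overexpression beside 217, 216 and 180, and at 282, 205 and 221 CPM in the knockdown beside 194, 238 and 291. Its values of 0.16 and -0.03 were not called (edgeR adjusted p = 0.528 and 0.917), and PSMF1, an inhibitor of the core, had 0.07 and -0.06.

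**Figure D4:**
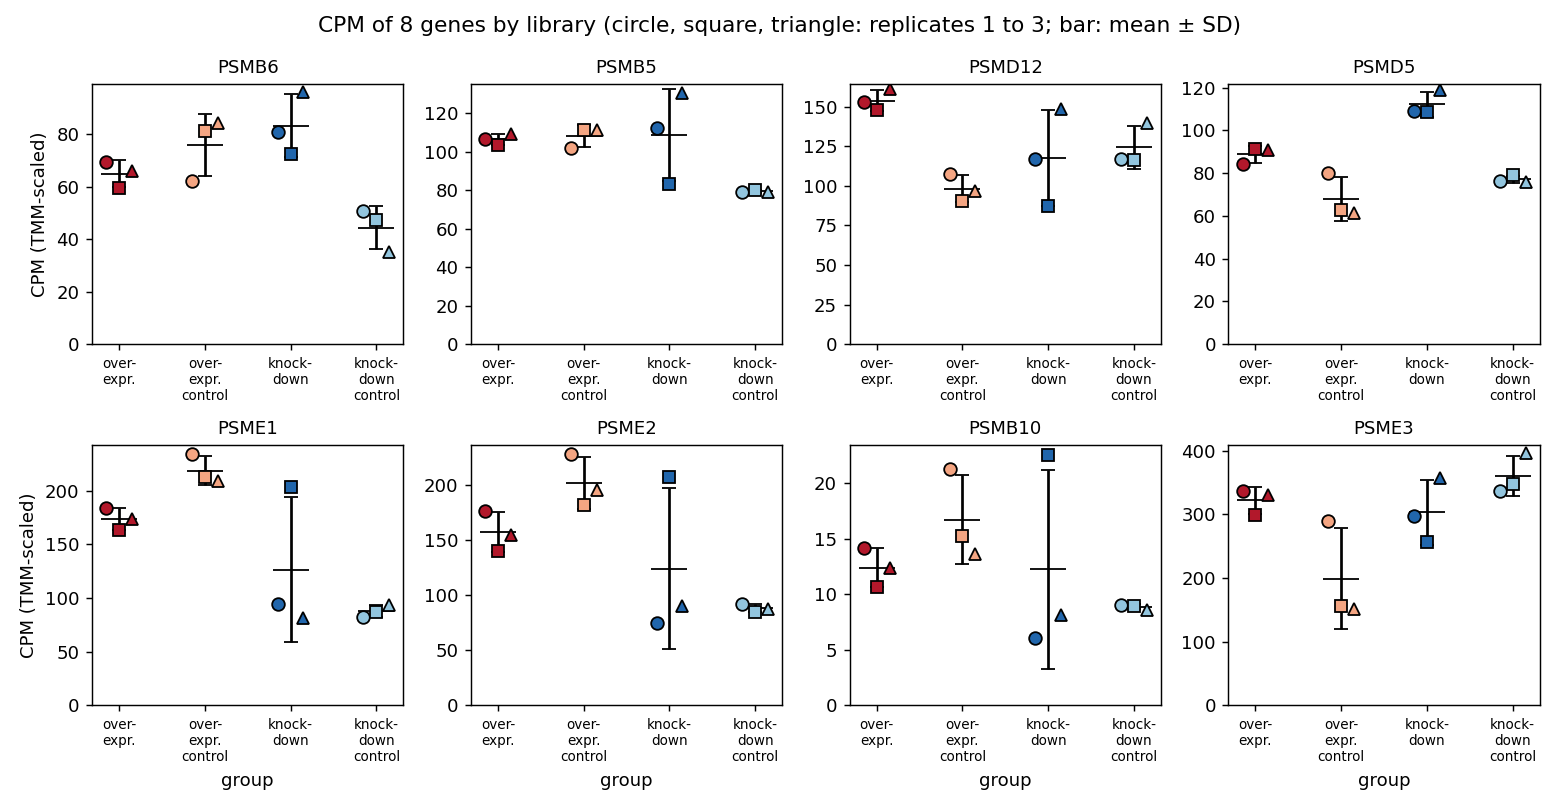
CPM of 8 genes by group, with points for the 3 replicates and a bar with mean ± SD. PSMB6 and PSMD5 lie apart from their controls in the knockdown, PSMD12 with overexpression, and PSME1, PSME2 and PSMB10 have 1 knockdown library, replicate 2, at the level of the overexpression arm or above.

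The difference of the arms, the overexpression response minus the knockdown response, was called for 7 of 45 genes, 4 higher and 3 lower, beside 25.6% of all genes (13.1% higher and 12.6% lower). It does not require a call in either arm. PSMB6 had a value of -1.13 (SE 0.24, edgeR adjusted p = 0.00607) and PSMG3 one of 0.62 (SE 0.16, edgeR adjusted p = 0.0149), and both held in each of the 21 alternatives (adjusted p 0.00012 to 0.0211 and 0.00108 to 0.0407). PSMG4 had -0.75 (SE 0.20, edgeR adjusted p = 0.0207), lost without overexpression replicate 2 or 3, overexpression control replicate 2 or knockdown control replicate 1 or 2, and with limma on FPKM (adjusted p 0.363 and 0.366). PSMD7, a lid subunit and partner of PSMD14, had 0.65 (SE 0.18, edgeR adjusted p = 0.0234), from 207, 193 and 216 CPM beside 197, 160 and 150, and 178, 157 and 194 CPM beside 222, 208 and 252. That call was lost without overexpression replicate 3, overexpression control replicate 2 or 3 or knockdown control replicate 3 (adjusted p 0.0549 to 0.0587). PSMB3 (-0.54), PSMD12 (0.73) and PSME3 (0.95) were called at adjusted p = 0.0306, 0.0415 and 0.0497 by edgeR. The first was lost without any 1 overexpression replicate, overexpression control replicate 2 or 3 or any 1 knockdown control (0.0532 to 0.0915), the second without those same libraries or knockdown replicate 1 (0.0583 to 0.0978), and PSME3 without any library other than overexpression control replicate 1 and knockdown replicate 3 (0.0660 to 0.109). Over all 21 alternatives the calls of PSMB3, PSMD12 and PSME3 were lost in 11, 10 and 11. The count of genes called ranged from 2 to 13 over single libraries left out, where the shares of all genes are not reported here.

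The control groups differed in NR0B1 themselves (44.4 ± 23.1 and 16.9 ± 3.95 CPM, SD, n = 3 each) and in more proteasome genes than either arm. Of the 45 genes 18 (40%, or 17 of 44 and 38.6% without PSMC3IP) were called between them, 8 higher and 10 lower in the overexpression control, beside 33.4% of all genes (17.2% higher and 16.1% lower). That share of all genes was also above those in the arms, 18.1% and 23.9%, so the larger count is not particular to the proteasome genes. The control groups did not overlap for 10 higher and 18 lower proteasome genes (10 and 17 without PSMC3IP), beside 27.3% and 26.7% of all genes. All 17 particle genes but 1 had values below 0 (median -0.35) and 7 were called, lower. Of the core genes 5 were called, higher (median 0.17). The highest were PSME1 (1.32, edgeR adjusted p = 0.00466) and PSME2 (1.20, edgeR adjusted p = 0.0126), 2.5-fold and 2.29-fold higher. The lowest of the 45 was PSMC3IP, which is no subunit (-1.79, edgeR adjusted p = 0.00776). PSMB6 was 1.71-fold higher (log2 0.77, edgeR adjusted p = 0.00596) and PSMD10 1.53-fold higher (log2 0.61, edgeR adjusted p = 0.00508) in the overexpression control, and PSMD3, a lid subunit, was 1.38-fold lower (log2 -0.47, edgeR adjusted p = 0.00532). Each arm's response is set against one of these control groups, so this comparison shares libraries with both arms and is no separate evidence. The count ranged from 7, without overexpression control replicate 3 or knockdown control replicate 3, to 23, without knockdown replicate 2 (41.3% of all genes) or 3. It was 9 without overexpression control replicate 2, 11 without knockdown control replicate 1 and 12 without knockdown control replicate 2. Apart from the 41.3%, the shares of all genes with these libraries left out are not reported here.

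The rest of the proteasome pathway was read in lists of 12, 8, 6, 10 and 6 genes tested. Of the 8 regulators of proteasome genes, MAFK, a small partner of the NFE2L factors, rose with overexpression, from 90.1, 67.1 and 63.9 CPM to 225, 287 and 262 (log2 1.81, edgeR adjusted p = 0.000373). In the knockdown it fell, from 176, 166 and 203 CPM to 88.1, 96.6 and 68.4 (log2 -1.11, edgeR adjusted p = 0.00136). NFE2L2, which is NRF2, fell in the knockdown from 356, 329 and 326 CPM to 117, 188 and 131 (log2 -1.21, edgeR adjusted p = 0.00123), and with overexpression stood at 312, 274 and 280 beside 243, 167 and 189 (log2 0.53, edgeR adjusted p = 0.0606). That value was called without overexpression control replicate 1 (adjusted p = 0.0207), knockdown replicate 1 (0.0491) or knockdown replicate 2 (0.0106). MAFF was also called lower in the knockdown (log2 -1.79, edgeR adjusted p = 0.0233), at -2.78 without knockdown replicate 2 (adjusted p = 0.000428), with the call lost without knockdown replicate 3 (0.0634) or knockdown control replicate 3 (0.0801). NFE2L3 was called higher (log2 1.09, edgeR adjusted p = 0.0415), at 60.6, 176 and 60.9 CPM beside 48.7, 45.8 and 44.9. Without knockdown replicate 2 its value was 0.38 and the call was lost (adjusted p = 0.0674), as it was without any other library but overexpression control replicate 1 and knockdown replicates 1 and 3 (0.0519 to 0.119). In all, 1 of 8 was called with overexpression, higher, beside 18.1% of all genes, and 4 of 8 in the knockdown, 1 higher and 3 lower, beside 23.9% of all genes. NFE2L1, which is NRF1, had -0.56 in the knockdown (edgeR adjusted p = 0.107), at 422, 785 and 424 CPM beside 796, 775 and 827, where replicate 2 stood with the controls. Without that replicate it was called lower (log2 -0.92, adjusted p = 0.00231).

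Of 12 further components and assembly factors 0 were called with overexpression by edgeR, 1 each by DESeq2 and limma, and 2 had an unadjusted p below 0.05. In the knockdown 2 were called, 16.7% beside 23.9% of all genes. The importin IPO9, which carries proteasomes into the nucleus, rose (log2 0.54, edgeR adjusted p = 0.0143) and its partner AKIRIN2 fell (log2 -0.45, edgeR adjusted p = 0.0475). The first call was lost without knockdown replicate 1 or knockdown control replicate 1 or 3 (adjusted p 0.0512 to 0.0575), the second without any library but overexpression control replicates 1 and 2 (0.0563 to 0.132). Of 6 ubiquitin and E1 genes UBB rose in the knockdown (log2 0.40, edgeR adjusted p = 0.0371), a call lost without overexpression replicate 2 or 3, overexpression control replicate 3, knockdown replicate 3 or any 1 knockdown control (0.0524 to 0.143). With overexpression edgeR and limma called 0 of them and DESeq2 2, and 3 had an unadjusted p below 0.05. Of 10 shuttles and unfoldase genes 2 were called with overexpression, the ubiquitin shuttle RAD23B (log2 0.36, edgeR adjusted p = 0.0260) and the VCP cofactor NPLOC4 (log2 0.42, edgeR adjusted p = 0.0255), both higher. Both calls were lost without any 1 overexpression replicate or overexpression control replicate 2 or 3 (0.0601 to 0.102). In the knockdown 2 were called, UBQLN1 (log2 0.52, edgeR adjusted p = 0.00773) and NPLOC4 (log2 0.37, edgeR adjusted p = 0.0314), both higher. The NPLOC4 call was lost without overexpression replicate 2 or 3, knockdown replicate 3 or any 1 knockdown control (0.0514 to 0.120), and the UBQLN1 call with no single library left out. The 2 of 10 called in each arm lay near the share of all genes, 18.1% and 23.9%. Of the 6 interferon-linked genes 0 were called with overexpression by edgeR, DESeq2 or limma, with 0 at an unadjusted p below 0.05, and NLRC5 was called higher in the knockdown (log2 2.38, edgeR adjusted p = 0.0269), at 13.5, 87.3 and 14.3 CPM beside 7.92, 9.31 and 4.94, where replicate 2 again stands apart. Without it the value was 0.91 and the call was lost (adjusted p = 0.0759), as it was without any 1 knockdown control (0.0602 to 0.10).

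Transcripts were counted separately and read as FPKM, with no test. PSMB6, PSMB3 and PSMD7 came to 99.8%, 100% and 99.2% from a single transcript each. PSMD12 came from a pair of transcripts, ENST00000357146 with 53.7% in the overexpression group, 52.5% in its controls, 49.6% in the knockdown and 53.8% in its controls. Of PSMD4, the transcript ENST00000445776 took 24.4% of its FPKM with overexpression, at 21.8, 12.9 and 15.4 FPKM, and 12.03% in the controls, at 13.4, 1.04 and 9.72 FPKM. The groups overlap, and the transcript was picked after its values were seen.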

How the data were processed

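Messenger RNA of A549 cells in 12 libraries, 4 groups of 3 as the labels give them, was sequenced. The authors deposited 1 table of transcripts with expected counts and FPKM per library, per the file headers. The submitters' processing notes name fastp, HISAT2, Bowtie2, StringTie and RSEM, and mouse genome builds, which go against the human transcript identifiers, so gene positions were taken from GENCODE 29 (GRCh38). Rows of Ensembl transcripts were summed per symbol, and assembled rows, 13.34% to 15.42% of counts, were left out and added back as an alternative. Genes with at least 1 FPKM in 3 or more libraries were kept. Expected counts, deposited by the authors, were rounded and tested with edgeR 4.0.16 (TMM, robust quasi-likelihood, 1 mean per group, all 12 libraries) and p-values were adjusted by Benjamini-Hochberg over 11908 genes, with 0.05 as threshold. The SE is the fold change over the root of the F statistic and is approximate. FPKM, as the authors deposited them, were used for levels between genes and, on the log2 scale, for limma 3.58.1. DESeq2 1.42.0, other scalings, no filter, libraries of an arm alone, a replicate block and each library left out were also run. The fit was tested on simulated data. Library values are given for the 4 genes of smallest adjusted p in each comparison and for 9 preset subunits, and for other genes where groups did not overlap or a list called them, chosen after their values were seen. The genes and lists were chosen with earlier results of these data known. Some genes of the pathway lists are not reported here, and the lists' counts and sums leave them out.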

Additional observations from a re-analysis of the deposited data

Results flagged for a closer look

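For 7 proteasome genes the response to overexpression differed from the response to the knockdown by a test of the difference itself (edgeR, Benjamini-Hochberg adjusted over all genes tested), in log2 units of overexpression minus knockdown. The value was -1.13 for PSMB6, -0.54 for PSMB3, -0.75 for PSMG4, 0.73 for PSMD12, 0.65 for PSMD7, 0.95 for PSME3 and 0.62 for PSMG3. Of these, PSMB6 and PSMG3 kept the call in every alternative run, and the other 5 lost it in at least 4 of 21.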

How the results depend on the processing

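Over 36 results for single genes, 648 values kept direction and side of the threshold under an alternative, 105 lost the call, 17 gained one and 15 turned. The count of proteasome genes called with overexpression, 4, was 7 with DESeq2, 1 without the FPKM filter, 12 without overexpression control replicate 1 and knockdown replicate 2 together, and 0 to 9 with single libraries left out. The knockdown count, 6, was 10 with DESeq2, 2 from the libraries of the arm alone, 10 with assembled rows, 13 without both libraries and 2 to 10 with single libraries left out. The count for the difference of arms, 7, was 4 without the filter, 13 without both libraries and 2 to 13 with single libraries left out. The share of all genes called with overexpression also moved, from 18.1% to 25.3% without overexpression control replicate 1 and to 27.7% without knockdown replicate 2. In the knockdown it moved from 23.9% to 28.6% without overexpression control replicate 1. Shares in the other settings are not reported here, so these counts cannot be read as a trait of the proteasome genes. Of the knockdown calls 4 were higher and 2 lower, but 2 and 4 with limma and 4 and 4 with library size alone. The particle median in the knockdown was 0.08 without both libraries and -0.24 to 0.08 with single libraries left out. The core median with overexpression ranged from -0.16 to -0.024 with single libraries left out. The values that turned were those of PSMB5 with overexpression (0.0086 and 0.0088 with limma, -0.065 to 0.0078 with single libraries left out), PSMD4 with overexpression (0.026 and 0.027 with limma), PSMB10 in the knockdown (-0.32 without both libraries, -0.32 to 0.79 with single libraries left out), PSME1 in the knockdown (-0.0030 to 0.77), PSME2 in the knockdown (-0.10 without both, -0.10 to 0.76) and PSME4 in the knockdown (0.058 with assembled rows, 0.064 without both, -0.18 to 0.12). None of these was called in the main test, and the cause was not tested. With the replicate number as a block 3, 5 and 7 genes were called with overexpression, in the knockdown and for the difference. Deviations of same-numbered libraries had low correlations (0.182, 0.118 and 0.00974 in the first arm, -0.0189, -0.0914 and -0.0559 in the second). Libraries of unlike number had -0.163 to 0.115 in the first arm and -0.0775 to 0.103 in the second. The values 0.182 and 0.118 were thus the highest of the first arm, which leaves a weak pairing there undecided. The numbers were not taken as pairs.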
